A study of Mus musculus with 6 samples.

Results

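Cdkn1a and Gm16197 are neighbouring genes on mouse chromosome 17, and the peaks of p53 ChIP-seq at this locus were taken from 5 deposited lists. Members were all peaks within 10 kb of either gene or in the interval between them, on mm9 with GENCODE vM1, which gave a window of 63.2 kb (chr17:29184419-29247667). It held 18 of the 48115 peaks of the 5 lists together. Cdkn1a (ENSMUSG00000023067.7) and Gm16197 (ENSMUSG00000085912.1) are 2 of 37310 annotated genes, and both were selected on the values and ranks of their peaks in these same lists, so that ranks and positions are given as a description and were not tested.

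Cdkn1a encodes p21, an inhibitor of cyclin-dependent kinases and a classical p53 target through which p53 holds damaged cells out of the cycle. Gm16197 is the annotated transcript of lincRNA-p21 (RefSeq symbol Trp53cor1), a long noncoding RNA read from the opposite strand upstream of Cdkn1a and known as p53-induced. The p53 tetramer recognises a response element made of a pair of decamers, each with purines, a core of C and G around A or T bases, and pyrimidines.

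The lists came from C57/Bl6 mice. Trp53+/+ spleens were divided with B220 beads into B cells and the remaining non-B cells, at 8 weeks of age, from untreated animals (mock) or 4 h after whole-body irradiation with 7 Gy (IR in the plots). Total spleen cells of irradiated Trp53-/- mice, whose age the labels do not give, showed what the CM5p antibody recovered without p53. That list differs from the others in cell composition as well as in genotype. Peak lists hold no expression by which the sorted cells could be checked here. The paper reports flow cytometry of both sorted fractions and describes the non-B cells as enriched in T cells. Each list was 1 library from pooled animals, so that differences between lists have no replicate check. Read depth is unknown, and binding below the calling limit would not be seen in a list. The value of a peak was read as −log10 of its p-value, since the lowest values of the lists lay just above 5, and is not normalised between libraries, hence ranks (1 is the highest value) are given within a list only.

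The transcripts of the 2 genes point away from each other. Gm16197 (chr17:29194419-29215906, minus strand, lincRNA) has 2 exons and starts 12018 bp upstream of Cdkn1a. Cdkn1a (chr17:29227924-29237667, plus strand, protein-coding) has 3 annotated starts, the first at 29227924, the second 2.79 kb and the third 7.23 kb further downstream, and its 3 transcripts share the same first coding base at 29235353. No other annotated gene overlapped the window.

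The scan of the window found 6 unsplit response elements with at most 3 mismatches to the p53 consensus. The core CNNG was required in each decamer, and because the consensus is its own reverse complement, either strand gives the same matches. Of the 6 elements, 2 had 1 mismatch, 0 had none or 2, and 4 had 3 mismatches. The 2 elements with 1 mismatch are shown because they lay under a peak in all 4 wild-type lists. Letters are those of the plus strand of mm9, and capitals mark the core of each decamer (positions 4 to 7).

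Gm16197 element, chr17:29215984-29216003: aggCAAGcccgggCAAGgcc
Cdkn1a element, chr17:29227873-29227892: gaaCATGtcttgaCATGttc

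The mismatch was at position 18 of the Gm16197 element and at position 11 of the Cdkn1a element, counted from the 5′ end as printed. Both elements lay just before an annotated start. The Gm16197 element lay 78 to 97 bases upstream of the lincRNA start, and the Cdkn1a element 32 to 51 bases upstream of the first Cdkn1a start, which places it 2825 to 2844 bases before the second start. To set them in their context, the 100 bases before each start follow in the direction of the gene, again with the cores of an element of at most 1 mismatch in capitals.

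Gm16197 start, minus strand, chr17:29215907-29216006: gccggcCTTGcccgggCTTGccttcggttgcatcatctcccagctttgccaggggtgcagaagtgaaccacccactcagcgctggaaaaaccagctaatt
Cdkn1a first start, plus strand, chr17:29227824-29227923: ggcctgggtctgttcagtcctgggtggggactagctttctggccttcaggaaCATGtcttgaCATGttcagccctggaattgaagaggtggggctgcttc
Cdkn1a second start, plus strand, chr17:29230617-29230716: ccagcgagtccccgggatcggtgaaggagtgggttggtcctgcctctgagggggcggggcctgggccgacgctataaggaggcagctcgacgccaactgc

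The first Cdkn1a start had no CpG in these 100 bases, the Gm16197 start 4 and the second Cdkn1a start 8, with GC contents of 56.0, 59.0 and 69.0%. Of 3909 annotated starts on chromosome 17, 2 had an element with at most 1 mismatch within the 100 bases before them, or 0.0512%, and these were the Gm16197 start and the first Cdkn1a start.

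A further match overlapped the Cdkn1a element. Its first decamer lay upstream, followed by a spacer of 12 bases and then by the first decamer of the unsplit element, and it had 0 mismatches. It is shown because no other element of the window, with or without a spacer, matched the consensus fully.

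Cdkn1a element with spacer, chr17:29227851-29227882: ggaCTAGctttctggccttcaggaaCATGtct

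With spacers of 1 to 15 bases, chromosome 17 held 288 elements without a mismatch, of which 30 lay in a peak of irradiated B cells and 2 in peaks of all 4 wild-type lists. Regions of 595 bases, the width of the mock B cells peak here, held such an element in 0.149% of cases. The window itself contained 58 spaced elements with at most 3 mismatches. Of these, 8 were inside a peak in irradiated B cells and 8 in irradiated non-B cells. Peaks of these lists covered 14.3% and 13.1% of the window, so both counts were near the covered share.

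**Figure D1:**
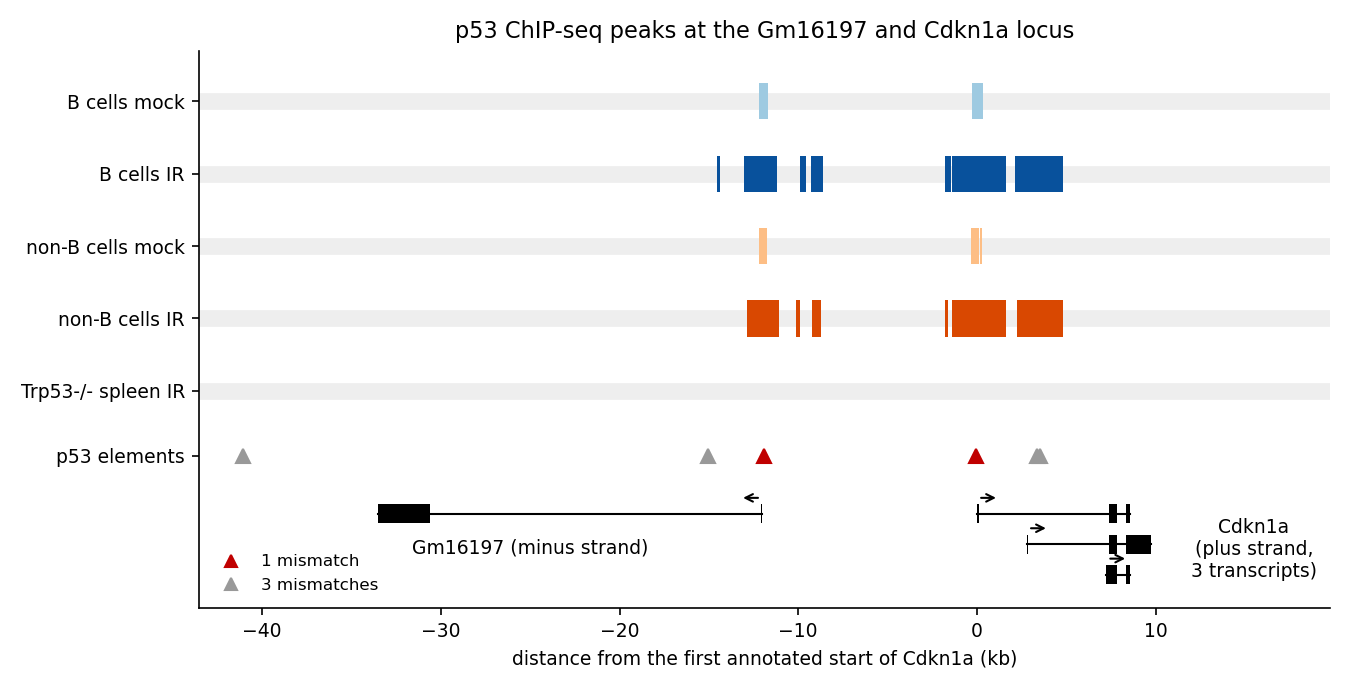
Peaks of the 5 lists (bars, drawn to width) against distance from the first annotated start of Cdkn1a in kb, with unsplit p53 elements of 1 or 3 mismatches (triangles) and the annotated transcripts (boxes are exons, arrows the direction). Mock peaks sit at or close to the 2 elements with 1 mismatch. IR peaks lie there and also between the genes, over the second Cdkn1a start and, in B cells, in the Gm16197 intron. The Trp53-/- list has 0 peaks.

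Peaks were then counted list by list. The window held 2 peaks in mock and 7 in irradiated B cells, 3 in mock and 6 in irradiated non-B cells, and 0 in Trp53-/- spleen. With peaks closer than 500 bp merged, irradiated B cells had 4 and irradiated non-B cells 5, so that the order of the compartments depends on how peaks were split. Both genes had at least 1 peak within 10 kb in each wild-type list. For comparison, the share of all annotated genes with such a peak was 3.51% in mock and 41.2% in irradiated B cells. In non-B cells it was 1.74% before and 39.8% after irradiation. A peak in all 4 wild-type lists was found for both members and for 1.32% of all genes. In the Trp53-/- list 0.0938% of genes had a peak within 10 kb, and neither member did. The Trp53-/- peak nearest to the window lay 7.37 Mb downstream of it.

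Peaks covered 1.73% of the window in mock B cells and 14.3% in irradiated B cells, against 0.0176 and 0.501% of chromosome 17. In non-B cells the covered share was 1.66% in mock and 13.1% after irradiation, against 0.0116 and 0.398% of the chromosome. The first IR peaks outside the window were at the Srsf3 start, 14.6 kb upstream of it in B cells (value 16.4) and 14.8 kb in non-B cells (12.7), and in Rab44, 29.8 kb downstream in B cells (123) and 29.9 kb in non-B cells (63.6). In the mock lists the nearest peaks were 283.6 kb away in B cells and 434.6 kb in non-B cells.

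The peak at the first Cdkn1a start was present in all 4 wild-type lists. In mock B cells it lay at chr17:29227655-29228249 with a value of 41.2, rank 54 of 1413. In irradiated B cells it spanned chr17:29226555-29229575, with a value of 318 and rank 7 of 24507. Peaks of at least its value made up 3.82% of the mock list and 0.0286% of the IR list, 2 shares that also follow the lengths of the lists. In mock non-B cells it lay at chr17:29227584-29228063 with a value of 44.4, rank 50 of 712. After irradiation it was at chr17:29226546-29229545 with a value of 621, which was rank 1 of 21400. The site was therefore near the top of every wild-type list and led the irradiated non-B cells list. In mock non-B cells a further peak of 109 bp (value 14.8, rank 227) followed after a gap of 55 bp, at chr17:29228119-29228227. It held no element and lay in the first intron, and both non-B mock peaks were inside the one IR peak.

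The peak at the Gm16197 start was likewise present in all 4 wild-type lists. In mock B cells the lincRNA start was covered by chr17:29215731-29216229 with a value of 22.8, rank 141 of 1413. In irradiated B cells the peak was chr17:29214868-29216713, with a value of 323 and rank 3 of 24507. In mock non-B cells it was chr17:29215728-29216185 with a value of 21.5, rank 129 of 712. In irradiated non-B cells it was chr17:29215036-29216820, with a value of 528 and rank 27 of 21400. All 4 peaks covered the annotated start and the first exon of the lincRNA. Because the mock and IR lists differ so much in length, the ranks at this site are values within each list and give no measure of change.

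The order of the 2 start peaks differed between lists. The Cdkn1a peak exceeded the Gm16197 peak by 18.33 in value in mock B cells and by 22.88 in mock non-B cells. In irradiated non-B cells it was 92.87 higher, and the peaks were 26 ranks apart. In irradiated B cells the lincRNA peak had the higher value, and the Cdkn1a peak was lower by 4.90, with the peaks 4 ranks apart. Ranked by width instead, the Cdkn1a peak came before the Gm16197 peak in all 4 lists, at 7 against 87 in irradiated B cells, so that the opposite order there holds for the value alone. Without replicates it cannot be said whether this change of order is larger than the variation between libraries.

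The mock ranks of the start peaks can be set beside those of all leading IR peaks, themselves included. Of the 10 highest irradiated B cells peaks, 8 overlapped a mock B cells peak, with mock ranks from 7 to 141 and a median of 55, and the Gm16197 start held the lowest place among these 8. Of the 10 highest irradiated non-B cells peaks, 9 overlapped a non-B mock peak, with mock ranks from 5 to 455 and a median of 91, against 50 for Cdkn1a.

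**Figure D2:**
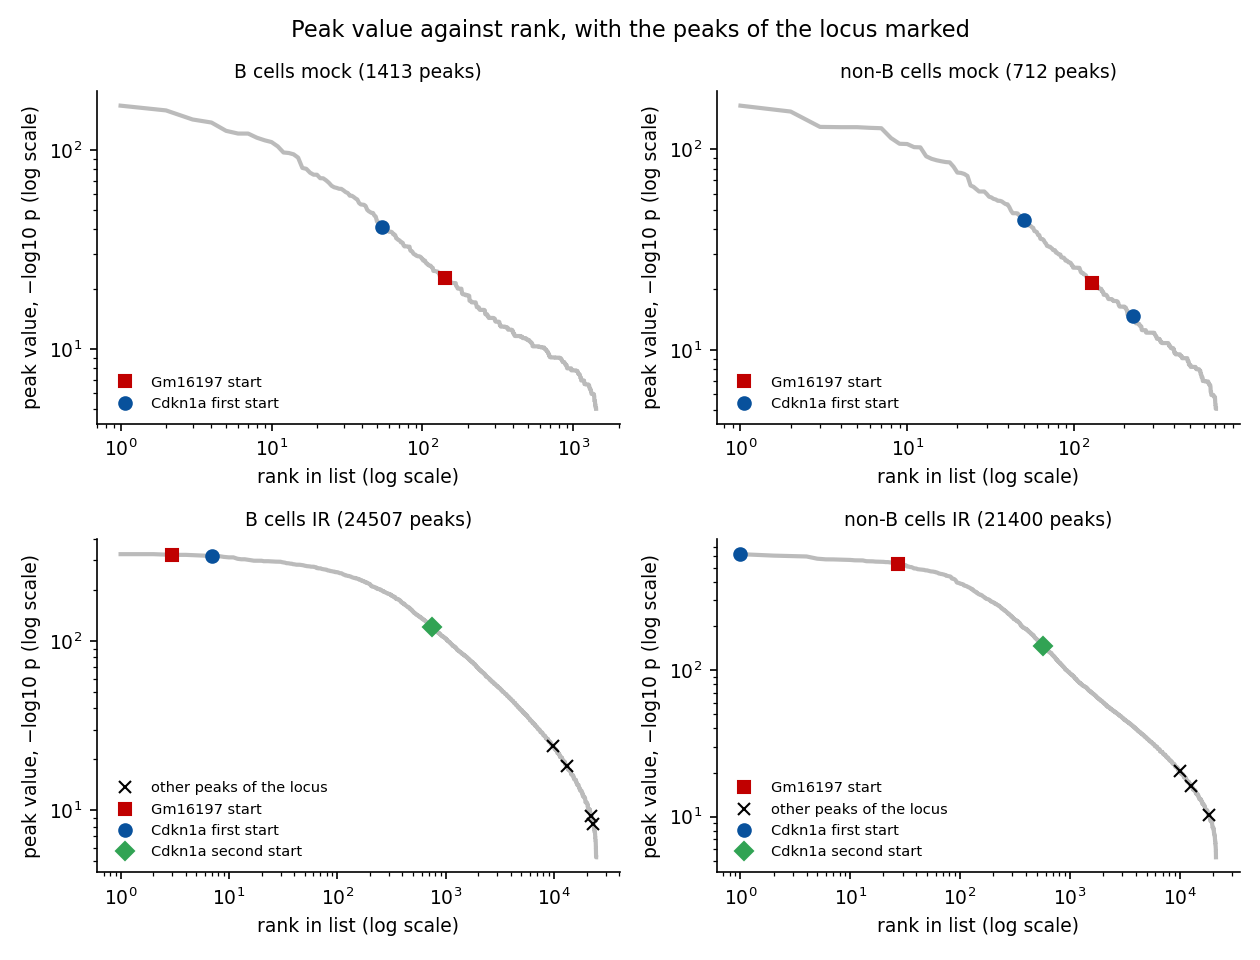
Value of every peak (−log10 p, log scale) against its rank (log scale) in the 4 wild-type lists, as a grey line, with the peaks of the locus marked by site; the lower-valued of the 2 circles in non-B cells mock is the 109-bp peak next to the Cdkn1a start. In both IR panels the 2 start peaks are within the first 27 ranks, and the peak at the second Cdkn1a start follows at rank 746 (B cells) and rank 566 (non-B cells).

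Peaks at both starts were wider after irradiation and stayed around the element. The Gm16197 peak was 3.7 times as wide in irradiated B cells as in mock B cells (1846 and 499 bp), and 3.9 times as wide in non-B cells (1785 and 458 bp). The Cdkn1a peak was 5.08 times as wide in B cells (3021 and 595 bp) and 6.25 times as wide in non-B cells (3000 and 480 bp). By width the Cdkn1a peak was rank 7 in irradiated B cells and rank 7 in irradiated non-B cells, and the Gm16197 peak rank 87 and rank 65. The lists themselves differ in width, the smallest peak being 55 bp in mock and 175 bp in irradiated B cells, and 53 and 174 bp in non-B cells, so that irradiation and the width at which peaks were called cannot be told apart here.

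The elements lay in the middle part of the peaks. In B cells the Gm16197 element was 13 bp from the peak midpoint in mock and 203 bp after irradiation, and in non-B cells 37 and 65 bp. At Cdkn1a the distance was 70 bp in mock and 183 bp after irradiation in B cells, and 59 and 163 bp in non-B cells.

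The ChIP-qPCR primers of the study fall on this site. They are shown because they mark the stretch of the p21 promoter that was assayed by targeted ChIP, and each had 1 exact match on its strand of the chromosome.

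Forward primer, chr17:29227855-29227874: tagctttctggccttcagga
Reverse primer, minus strand, chr17:29227984-29228003: ggggtctctgtctccattca

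The amplicon of 149 bp contained the Cdkn1a element, and all 149 bp were inside the peak of each wild-type list, against 0 bp in the Trp53-/- list.

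**Figure D3:**
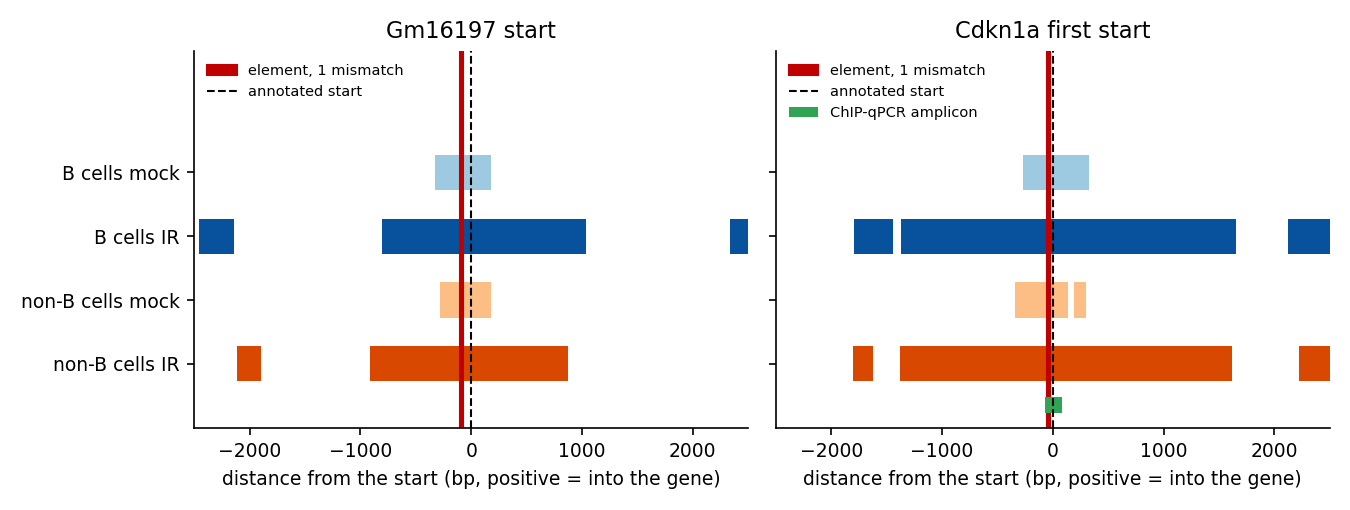
Peaks of the 4 wild-type lists (bars) around the Gm16197 start (left) and the first Cdkn1a start (right), in bp, each in the direction of its gene, with the element of 1 mismatch (red), the start (dashed) and the ChIP-qPCR amplicon (green). All 4 lists have a peak over the element and the start at both genes, and the IR peaks reach further on either side than the mock peaks.

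Sequence at the start peaks was compared with chromosome 17. Elements with at most 1 mismatch were found in 0.0912% of regions as long as the mock B cells peak at Gm16197 and in 0.111% of those as long as the one at Cdkn1a. Among the IR peaks the shares were 0.358% for the length of the Gm16197 peak in B cells and 0.579% for that of the Cdkn1a peak. The chromosome held 185 elements with 0 or 1 mismatch, of which 64 lay in an irradiated B cells peak, or 34.6% (95% Wilson interval 28.1 to 41.7%), and 65 in an irradiated non-B cells peak, or 35.1% (28.6 to 42.3%). These intervals cover counting error only.

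Elements under a peak in all 4 wild-type lists were far fewer. Of the 185 there were 3, or 1.62% (0.553 to 4.66%), and the Gm16197 and Cdkn1a elements were 2 of these. The remaining one, chr17:72529124-72529143, lay 319615 bp from the nearest annotated start, and ranked 64 in mock and 9 in irradiated B cells, and 44 and 6 in non-B cells. The ranks of Cdkn1a were 54 and 7, and 50 and 1.

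Fewer mismatches went with a larger share of elements in a peak. In irradiated B cells, 47.8% of the 23 elements without a mismatch on chromosome 17 were inside a peak (29.2 to 67.0%), 32.7% of the 162 with 1 mismatch (26.0 to 40.3%), 9.10% of the 802 with 2 (7.30 to 11.3%) and 1.83% of the 3273 with 3 (1.43 to 2.35%). None of the 23 elements without a mismatch was inside a peak of either mock list (0 to 14.3% in each). Of the 162 with 1 mismatch, 1.85% were in each mock list, so the absence does not set the 23 apart from them. Of the 4 elements with 3 mismatches in the window, 2 were inside IR peaks and 2 were not, namely chr17:29186846-29186865, beyond the end of Gm16197, and chr17:29212872-29212891, in its intron.

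**Figure D4:**
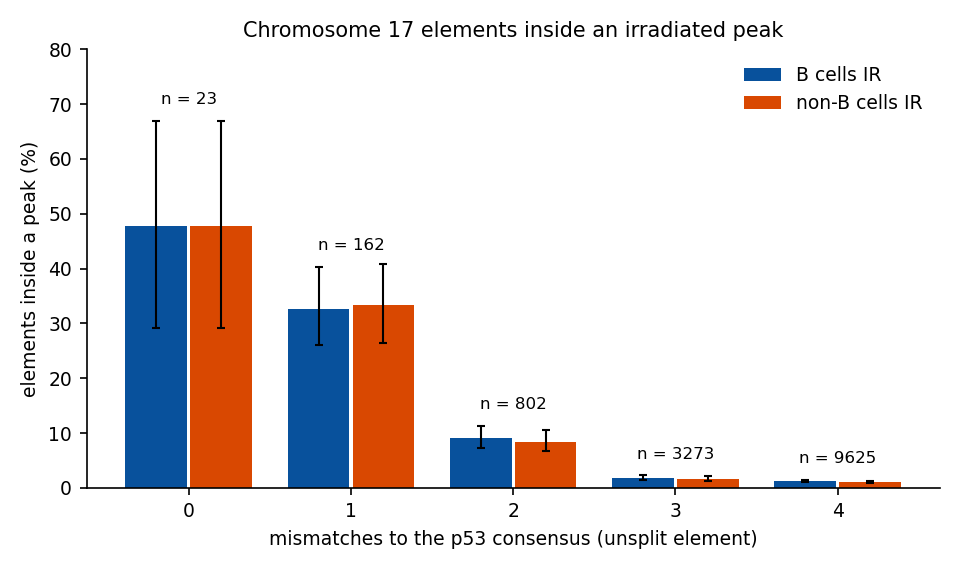
Share of unsplit p53 elements on chromosome 17 that lie inside a peak (%), by number of mismatches, in B cells IR (blue) and non-B cells IR (orange), with 95% Wilson intervals and the number of elements above. The share is 32.7 and 33.3% at 1 mismatch, the class of the Gm16197 and Cdkn1a elements, and 1.83 and 1.68% at 3 mismatches.

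A peak over the second Cdkn1a start was listed after irradiation only. It lay at chr17:29230051-29232727 in irradiated B cells, with a value of 121 and rank 746, and at chr17:29230144-29232718 in irradiated non-B cells, with a value of 146 and rank 566. Neither mock list had a peak there, and its edges differed between compartments by 93 and 9 bp. It was separated from the peak at the first start by 475 bp in B cells and 598 bp in non-B cells. By width it was rank 16 of its list in B cells (2677 bp) and rank 13 in non-B cells (2575 bp).

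This peak differed from the start peaks in sequence. GC made up 60.4% of the B cells peak and 60.9% of the non-B cells peak, with an observed to expected CpG ratio of 0.73 in each, whereas the peak at the first start had 48.1 and 48.0% GC and ratios of 0.17 and 0.18. The Gm16197 peak was between these, with 50.5% GC in non-B cells and ratios of 0.39 and 0.38. Over all chromosome 17 peaks the median GC content was 52.0% in B and 52.2% in non-B cells after irradiation, with median ratios of 0.34 and 0.37. The peak held no element with fewer than 3 mismatches. Its 2 elements with 3 mismatches, shown for comparison with the start elements, lay 563 to 582 and 726 to 745 bases downstream of the second start.

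Intron element, chr17:29231280-29231299: tgaCAAGcttcggCGAGtct
Intron element, chr17:29231443-29231462: gatCGTGcctgggCACGtcc

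At least 1 element of this quality was found in 11.1% of regions as long as the B cells peak. For the length of the non-B cells peak it was 10.8%. The share of regions with 2 such elements, as in this peak, was not computed. The 2 peaks over Cdkn1a starts therefore differed in rank, in presence without irradiation and in the match to the consensus. The third start, the nearest to the coding region, had no peak in any list.

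The remaining peaks were weak and were listed after irradiation only. In the Gm16197 intron, chr17:29213383-29213571 was listed in B cells (value 18.4, rank 13229) and not in non-B cells. Between the genes, B cells had chr17:29218048-29218364 (8.33, rank 22941) and non-B cells chr17:29217808-29218024 (16.2, rank 12760), which did not overlap and were 23 bp apart. A nearby peak was shared, at chr17:29218656-29219292 in B cells (24.0, rank 9814) and chr17:29218698-29219209 in non-B cells (20.4, rank 10063). Close to Cdkn1a, chr17:29226131-29226478 in B cells (9.23, rank 22014) overlapped chr17:29226121-29226298 in non-B cells (10.2, rank 18608). None of these 7 peaks contained an unsplit element with at most 3 mismatches. Such elements were found in 0.725 to 2.73% of regions of these lengths, so their absence does not set these peaks apart. Elements with a spacer and 2 or 3 mismatches lay in the intron peak. An element with a spacer and 3 mismatches lay in chr17:29218656-29219292 and its non-B cells counterpart. The value of each of the 7 peaks was in the middle or the low part of its list.

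Peaks sharing 1 bp or more were then paired between lists. Of the 7 irradiated B cells peaks of the locus, 2 overlapped a mock peak, against 4.28% of all irradiated B cells peaks. Of the 6 irradiated non-B cells peaks, 2 did, against 2.43% of the whole list. Both mock B cells peaks and all 3 mock non-B cells peaks of the locus were inside an IR peak of the same compartment. Over the whole lists, 88.2% of mock B cells peaks and 90.9% of mock non-B cells peaks overlapped an IR peak. These counts therefore do not set the locus apart. Between compartments, 5 of 7 irradiated B cells peaks overlapped an irradiated non-B cells peak, against 73.6% of the list, and 5 of 6 irradiated non-B cells peaks overlapped an irradiated B cells peak, against 85.3%. The shares between compartments were thus near those of the whole lists, and the peaks not shared were among the weak ones.

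Genes of the p21 pathway were looked at beside the locus, by the highest peak between 5 kb before and 2 kb after an annotated start. The list had 30 genes and was chosen with results of these lists known. In mock B cells 0 of the 30 had a promoter peak, against 1.96% of all protein-coding genes, and in mock non-B cells 1 had, against 0.947%. After irradiation it was 24 of 30 in B cells, against 39.5%, and 20 of 30 in non-B cells, against 38.4%. In the Trp53-/- list it was 0, against 0.067%. A promoter peak in all 4 wild-type lists, as at Cdkn1a, was found at 0.697% of protein-coding genes, and, as at Gm16197, at 0.707% of lincRNA genes.

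The CDK inhibitors most closely related to p21 had a low-ranked promoter peak or none. Cdkn1b, which encodes p27, had a promoter peak at rank 15091 in irradiated B cells (value 16.0) and at rank 14743 in irradiated non-B cells (13.9), and none in mock. Cdkn1c, which encodes p57, had none in any list. Among the 4 INK4 inhibitors of the CDK4 and CDK6 kinases, 1 had a promoter peak in irradiated B cells and 2 in irradiated non-B cells, and the higher one was Cdkn2c, at ranks 7939 and 12359. None of these 6 genes had a mock promoter peak, where the share of all protein-coding genes was 1.96% in B and 0.947% in non-B cells. After irradiation that share was 39.5 and 38.4%, and with so few genes these counts are not set apart from it.

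Genes acting upstream of p21 came next. All 5 of them had a promoter peak in both IR lists, against 39.5 and 38.4% of all protein-coding genes. They were put on the list with results of these data known, so the full count is no trait of the group. Mdm2, the ubiquitin ligase that degrades p53, was at rank 179 in irradiated B cells (value 224) and 193 in irradiated non-B cells (294). It was the only gene of the 30 with a mock promoter peak, at rank 676 of 712 in mock non-B cells. The value of that peak was 5.95, near the lowest of its list (5.08). Trp53 itself was at ranks 755 and 389. Mdm4, a partner of Mdm2 in restraining p53, was at ranks 2699 and 2651, and Atm, the kinase that signals double-strand breaks, at 4662 and 2890. None reached the ranks of either start peak of the locus.

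Among the cyclins, kinases, pocket proteins and their partners, Ccna2, a cyclin of S phase, had the highest promoter peak, at rank 3693 in irradiated B cells and 2144 in irradiated non-B cells. The pocket proteins Rbl2 and Rb1, which p21 keeps in their repressive state by blocking CDKs, were at ranks 4234 and 4258 in B cells and 3601 and 3436 in non-B cells. Hnrnpk, a protein known to bind lincRNA-p21, was at ranks 5509 and 6322. Cyclins had a promoter peak at 6 of 7 genes in irradiated B cells and 3 of 7 in irradiated non-B cells, and the kinases at 3 and 2 of 4, where the share over all protein-coding genes was 39.5% and 38.4%. In non-B cells both counts were near that share. In B cells the cyclin peaks were those of Ccna2, another at rank 7356, and the rest at ranks 23141 to 23879 of 24507 (values 8.33 to 7.46). The kinase peaks in B cells were at ranks 18483 to 21302. Both B cells counts thus rest largely on peaks in the lowest part of the list. The 6 genes of pocket proteins, E2F factors and the DREAM subunit Lin54 all had a promoter peak in irradiated B cells, and 5 of them in irradiated non-B cells. The share of all protein-coding genes was 39.5% and 38.4%. Pcna, the replication clamp that p21 binds, had one in both. These genes too were listed with results of these data known, so the counts are no trait of the group.

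**Figure D5:**
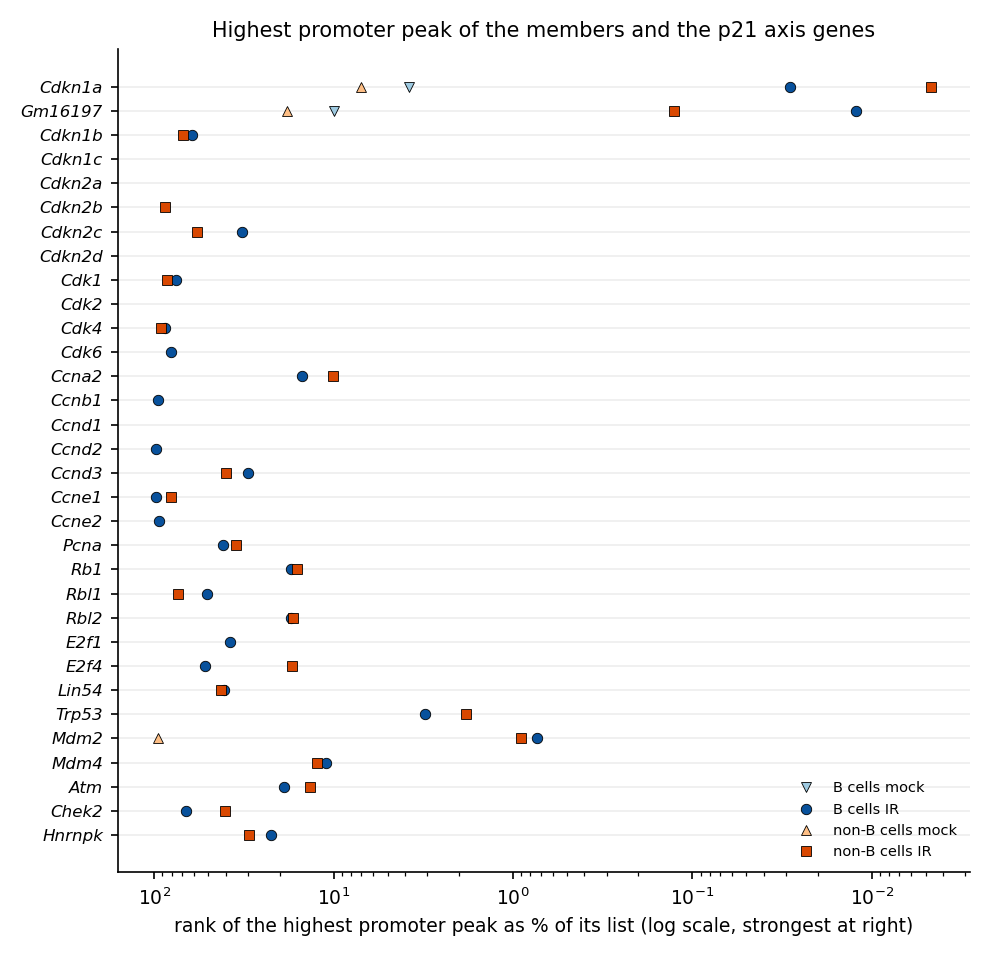
Rank of the highest promoter peak as a share of its list (%, log scale, strongest at the right) for Cdkn1a, Gm16197 and the 30 genes of the p21 pathway, by wild-type list; a missing symbol means no promoter peak. Both members have all 4 symbols, with IR shares of 0.126% or less, whereas the next gene, Mdm2, is at ranks 179 and 193.

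Protein-coding genes with the pattern most like the members were found among the 156 with a promoter peak in all 4 wild-type lists. Likeness was the Euclidean distance between within-list percentiles over these 4 lists. The 5 nearest to Cdkn1a were Lzic and Nmnat1, which share a promoter peak (distance 1.20 percentile points), Aen (1.51), Fyn (1.68) and 9030617O03Rik (1.90). Aen, a nuclease known as p53-induced, was at ranks 34 and 48 in mock B and non-B cells and 74 and 73 after irradiation. The kinase gene Fyn was at ranks 31 and 47 in mock, and 2 and 24 after irradiation. Nearest to Gm16197 were Glipr1 (2.47), 4831426I19Rik (3.78), 1700081L11Rik (4.39), and Ccdc58 and Fam162a with a shared peak (4.43). Glipr1 was at ranks 126 and 118 in mock, 270 in irradiated B cells and 109 in irradiated non-B cells. In both IR lists every one of these genes was within the first 270 ranks, so that the percentiles hardly separate them there. With the distance taken on log10 of the rank share, 1 of the 5 genes named for Cdkn1a and 0 of the 5 for Gm16197 were among the nearest.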

How the data were processed

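Each of 5 libraries had 1 deposited peak list, and the input library was not used here. The authors masked low-quality bases, aligned reads with BWA (0.6.2 per the submitters' processing notes) to mm9 and called peaks with MACS, 1 list per library from pooled chromatin. The deposited value of a peak was taken as −log10 of the authors' p-value. The scale was inferred from the values, and ranks do not depend on it. The lowest value of a list was 5.01 to 5.85, under the 8 that the limit of 1e-08 stated in the methods would give on this scale.

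The members and gene lists were chosen with earlier results of these data known. Peaks were ranked by value, ties by width. Coordinates are from 1 on NCBIM37 (mm9), with GENCODE vM1. Elements were pairs of p53 decamers, at most 3 mismatches, spacer 0 or 1 to 15 bases. Background regions were consecutive stretches of chromosome 17 of equal length. RefSeq (GRCm38.p6) gave names only. Genes named were the members, others overlapping the window, the 5 nearest patterns per member, and from the pathway list Cdkn1b, Cdkn1c, up to 8 by irradiated B cells rank and any with a mock promoter peak. Cdkn2c, Lin54, Pcna, Srsf3, Rab44 and the third element on the chromosome were outside this rule and singled out after their values were seen. Missing from a list means not called, at a depth that is unknown. Alternatives were other windows, overlap rules, ranks, mismatch limits, promoters and likeness measures. The scan without a spacer and the overlap rules of 1 bp and 50% were tested on simulated data and recovered 4 of 4 known answers. The scan with a spacer and the midpoint rule were not tested in this way. Python 3.11.15, numpy 2.4.6, pandas 2.3.3, scipy 1.17.1 and matplotlib 3.10.9 were used.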

Additional observations from a re-analysis of the deposited data

Results flagged for a closer look

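After irradiation the order of the 2 start peaks was opposite in the 2 compartments: the value at Cdkn1a minus that at Gm16197 was -4.90 for B cells but 92.87 for non-B cells. With 1 library per group this difference was not tested. In both mock lists the Cdkn1a peak was the higher one, by 18.33 and 22.88. By width the Cdkn1a peak came first in all 4 wild-type lists, so the opposite order concerns the value alone.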

How the results depend on the processing

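Of 67 recomputed values, 45 gave the same number, and 55 stayed within 1.5 times for counts or, for ranks, within the 95% Wilson interval of the rank's share of its list. No single value changed sign, but the order of the 2 start peaks in irradiated B cells turned when ranked by width. Merging peaks closer than 500 bp reduced irradiated B cells to 4 peaks in the window, below the 5 of irradiated non-B cells. Ranking by width put the first Cdkn1a peak at 7 in irradiated non-B cells. The Gm16197 peak was then at 67 in mock and 87 in irradiated B cells, and at 56 and 65 in non-B cells. Its rank of 3 in irradiated B cells, before Cdkn1a, thus rests on value, whereas by width it was rank 87 of 24507. With at most 2 mismatches the window held 2 elements and with at most 4 it held 17. Those under an irradiated peak were 4 as reported, 2 with at most 2 mismatches, and 10 with a spacer of 1 to 15 bases. Distance on log10 of the rank share kept 1 of the 5 genes nearest to Cdkn1a and 0 of the 5 nearest to Gm16197, so these names depend on the scale. The window extensions of 0, 5 and 25 kb, the minimum value of 8, leaving out peaks shared with the Trp53-/- list, the overlap rules, the assembled chromosomes alone, the narrower promoters and the largest difference as likeness measure stayed within these limits. No paired analysis was possible because no condition was sequenced more than 1 time, and leaving out a library would have removed a whole condition.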
